A study of Mus musculus with 12 samples.

Results

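The genes of creatine and calcium cycling were examined in brown adipocytes treated with the organophosphate insecticide chlorpyrifos (CPF). They were matched by symbol from a list of 9 genes, of which 6 were analysed among the 14775 genes of the table: Slc6a8, Gamt, Ckb, Alpl, Atp2a2 and Atp2b1. The other 3, Gatm, Ckmt1 and Ckmt2, were not analysed here. The cells were TMCON brown pre-adipocytes, a single immortalized murine line, taken through 9 days of differentiation and then treated over 4 h in a buffered salt solution with calcium and albumin. The induction mix held IBMX, indomethacin, dexamethasone, T3 and insulin, and T3 and insulin were kept on until treatment. The 2 groups of 6 libraries shared all of this and differed in that one received 1 pM CPF and the other the vehicle, dimethyl sulfoxide. By the study's methods, its lines came from brown fat of FVB/N or UCP1 reporter mouse pups, immortalized with an SV40 retrovirus, selected with puromycin and cleared of mycoplasma with ciprofloxacin. Which of these mice gave this line was not settled here. Nothing read here tells whether replicates were separate cultures, so the p-values speak only of library-to-library spread, which may be technical.

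UCP1 makes heat by letting protons leak back into mitochondria without ATP being made. Brown and beige fat can also spend ATP in cycles that do no net work. In the creatine cycle, creatine is phosphorylated by a creatine kinase at the mitochondrion and the phosphate is then removed again, in part by the phosphatase TNAP, so that ADP returns to the mitochondrion and respiration goes on. In the calcium cycle, SERCA pumps use ATP to move calcium into the endoplasmic reticulum (ER), from which it leaks back through ryanodine and IP3 receptors. Both cycles have been described in mouse fat as routes of heat production that do not need UCP1. The comparison of CPF with vehicle therefore asks whether transcripts of these routes differed in the same cells in which Ucp1 was measured.

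The cells carried transcripts of brown adipocytes, and 12 of 13 listed brown fat markers were analysed. In normalized counts, Cidea, a lipid droplet protein of brown fat, stood at 8047 ± 420 with vehicle and 7964 ± 1594 with CPF (mean ± SD, n = 6 each), and Ucp1 at 2850 ± 1338 and 1593 ± 335. Elovl3, of the same list, was low, at 20.0 ± 8.05 and 15.1 ± 5.05, from 8 to 27 reads in a library. Prdm16 stood at 277 ± 25.4 and 283 ± 78.1, and Dio2 was not analysed. All 8 listed markers of preadipocytes and fibroblasts were also present, with a summed level of 39934 to 75875 with vehicle and 36783 to 49651 with CPF. Col1a1, Col3a1 and Pdgfra made up most of that sum, with vehicle means of 24516, 16194 and 5697. Markers of skeletal muscle, a tissue rich in creatine kinases and SERCA pumps, could be read for only 1 of 12 listed genes, Acta1, at 23.3 ± 9.85 and 25.3 ± 13.6. Of 5 osteoblast markers only Runx2 was analysed (207 ± 40.1 and 178 ± 19.9), of 5 macrophage markers Cd68 and Csf1r, and of 4 endothelial markers none. How the table was filtered is not given in the sources used here, so a marker that was not analysed is not shown to be absent from the cells. The libraries held 7875502 to 14166615 reads. Vehicle replicate 2 and CPF replicate 1 stood apart from the other 10, with scores of 31.54 and 33.02 on the first principal component. The other CPF libraries scored −13.71 to −10.25 and the other vehicle libraries −6.42 to 6.12. These 10 thus also differed by group on that axis. Results are given with and without the 2 libraries that stood apart.

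The promoters of 3 genes are shown because they differ in kind while serving the same cycle: Ckb, the creatine kinase with the widest spread between libraries, Gamt, which makes creatine, and Alpl, which encodes TNAP. Each line gives the 250 bases before the transcription start, 5′ to 3′ on the strand of the gene, from RefSeq on GRCm38.p6, with matches in capitals. Of the 6 genes, 4 (Ckb, Gamt, Alpl and Atp2b1) were matched in the RefSeq table by symbol. Slc6a8 and Atp2a2 were the others.
Ckb, chr12:111672339-111672588, minus strand: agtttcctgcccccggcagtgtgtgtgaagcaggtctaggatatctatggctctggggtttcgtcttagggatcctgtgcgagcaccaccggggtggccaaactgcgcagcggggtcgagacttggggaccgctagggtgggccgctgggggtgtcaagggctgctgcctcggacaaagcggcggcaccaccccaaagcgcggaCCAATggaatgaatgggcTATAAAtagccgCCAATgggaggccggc
Gamt, chr10:80261013-80261262, minus strand: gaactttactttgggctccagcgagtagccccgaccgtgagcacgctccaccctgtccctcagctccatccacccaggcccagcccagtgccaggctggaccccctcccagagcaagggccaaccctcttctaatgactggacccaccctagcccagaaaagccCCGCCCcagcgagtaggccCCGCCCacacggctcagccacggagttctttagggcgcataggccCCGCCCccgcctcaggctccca
Alpl, upstream start, chr4:137796385-137796634, minus strand: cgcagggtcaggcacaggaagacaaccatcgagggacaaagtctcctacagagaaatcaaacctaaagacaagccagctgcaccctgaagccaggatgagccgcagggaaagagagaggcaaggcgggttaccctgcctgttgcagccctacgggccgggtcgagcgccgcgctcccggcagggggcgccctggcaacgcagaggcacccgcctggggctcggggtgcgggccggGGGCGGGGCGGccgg
The capitals mark the TATA box TATAAA, the CCAAT box CCAAT and the GC box GGGCGG, each sought on both strands. Ckb held a TATA box 28 bases before its start and CCAAT boxes 46 and 16 bases before it, and no GC box. Gamt held 3 GC boxes, 86, 67 and 22 bases before its start, and the upstream start of Alpl held 2, 15 and 10 bases before it, which overlap by 1 base. Of 32851 windows of the same length, 12.4% held a TATA box, 33.8% a CCAAT box and 32.7% a GC box. The cAMP response element TGACGTCA (in 1.55% of windows), its shorter form TGACG (17.8%), which lies within the full element, the ERR element TCAAGGTCA (0.387%), its inner part AGGTCA (14.0%) and the E box CACGTG (6.02%) were also sought and were not in these 3 windows. The window of a second, downstream start of Alpl, not shown, held TGACG 128 bases, AGGTCA 31 bases and a TATA box 192 bases before that start. Guanine and cytosine made up 62.8% of the Ckb window, 66.8% of that of Gamt and 68.4% of that of Alpl, against a median of 52.4%. A match is a description of letters, not of a bound site.

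Atp2a2 was the most abundant transcript of the set per kb and Ckb the least. Levels of different genes were compared as normalized counts per kb of exon, averaged over the vehicle libraries. Atp2a2, which encodes the SERCA2 pump, stood at 491 ± 41.0 per kb and above 92.9% of the genes of the table. Slc6a8, the creatine transporter of the plasma membrane, followed at 192 ± 19.1 (above 79.7%). Gamt, the methyltransferase of the last step of creatine synthesis, and Atp2b1, the plasma membrane calcium pump PMCA1, lay close together at 74.2 ± 8.11 and 73.7 ± 17.2. Alpl, for the tissue-nonspecific alkaline phosphatase TNAP, stood at 34.9 ± 7.80, and Ckb, the brain-type creatine kinase of the cytosol, at 12.2 ± 3.83 (above 20.8%).

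**Figure D1:**
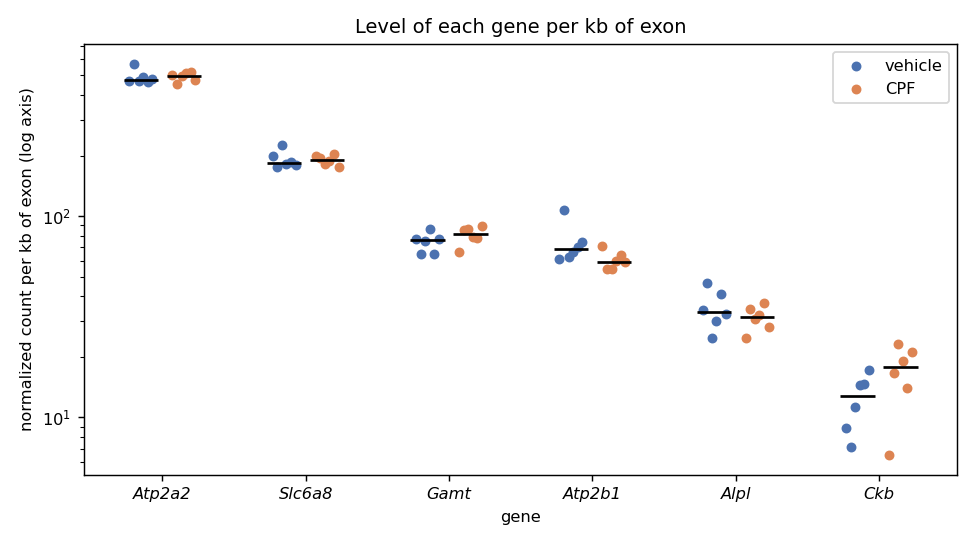
Normalized count per kb of exon (log axis) of 6 genes in each of 12 libraries, blue for vehicle and orange for CPF, with the median of each group as a line. The genes fall in steps from Atp2a2 at 491 to Ckb at 12.2 per kb (vehicle means), and only Gamt and Atp2b1 overlap.

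This order was the same in all 12 libraries for every pair of neighbours but Gamt and Atp2b1, where Gamt was the higher per kb in 9. With the longest annotated transcript as the length instead of all exons, Atp2b1 stood above Gamt, at 157 against 108 per kb, since the exons of Atp2b1 add up to 15.2 kb and its longest transcript to 7.13 kb. Within a vehicle library Atp2a2 was 27.9 to 80.7 times as high per kb as Ckb, and Slc6a8 10.5 to 24.8 times. Ucp1 itself was 75.7 to 448 times as high per kb as Ckb in vehicle libraries and 39.7 to 117 times in CPF libraries. Among pumps of the same family, Atp2a2 was 2.10 to 3.20 times as high per kb with vehicle as Atp2a3, which encodes SERCA3, and 2.12 to 3.55 times with CPF. Atp2b1 was 3.39 to 6.32 times as high as Atp2b4, which encodes PMCA4, with vehicle, and 3.05 to 4.34 times with CPF. These ratios are within each library and do not depend on its scaling.

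Between CPF and vehicle none of the 6 transcripts passed the test over all genes. A linear model for each gene (limma, two-sided, on log2 of the normalized count plus 1) was fitted to 13531 genes, with a call wherever the p adjusted by the Benjamini-Hochberg method was under 0.05. By this rule 0 genes were called, or 0% of those tested. At an unadjusted p under 0.05 there were 375 genes higher (2.77%) and 615 lower (4.55%) with CPF, together 990 or 7.32%, and of the 6 genes only Atp2b1, lower with CPF, was among them. By the exact permutation test, two-sided and unadjusted, 1040 genes (7.69%) had a p under 0.05, and 0 of the 6 did. On reads recovered from the table, edgeR called 0 genes and DESeq2 called 4 (0.0271%), with 0 of the 6 among them. Leaving out the 2 libraries that stood apart gave 54 calls (0.400%), again with 0 of the 6. Of the 6, 3 had a positive and 3 a negative log2 fold change, with a median of 0.0010 against −0.0015 over all genes tested.

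**Figure D2:**
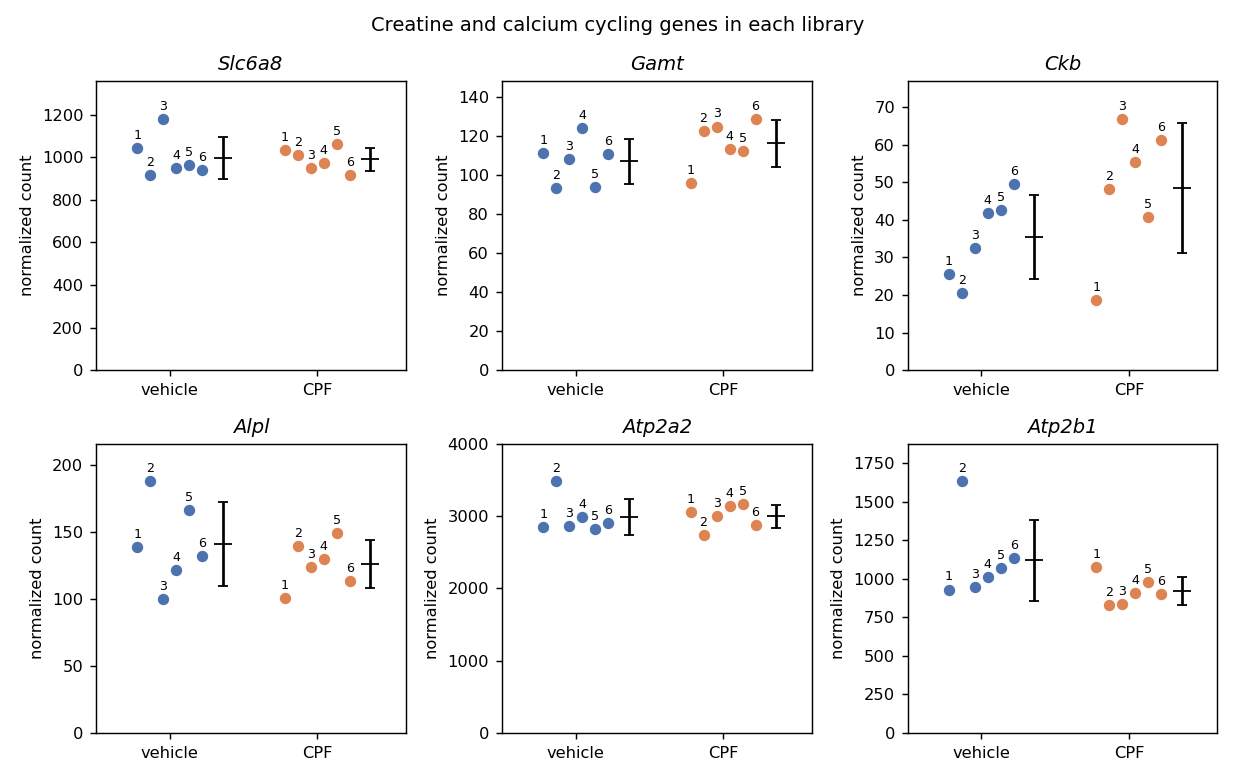
Normalized count of each of 6 genes in the 12 libraries, 1 panel per gene, with the replicate number above each point and the mean ± SD of each group beside it. The axes start at 0. The groups overlap for every gene, and the highest Atp2b1 value, 1633, and the lowest Ckb value, 18.8, belong to vehicle replicate 2 and CPF replicate 1.

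For creatine uptake and synthesis the groups overlapped. Slc6a8 (ENSMUSG00000019558, GRCm38 chromosome X: 73673150–73682502, plus strand) ran from 915 over a median of 956 to 1181 normalized counts with vehicle and from 918 over 993 to 1062 with CPF. All CPF libraries lay within the vehicle range. Its log2 fold change was −0.01 (SE 0.065, limma adjusted p = 0.990), with a 95% interval of 0.905- to 1.10-fold. Its sign was not fixed, as replicates 1 to 3 alone gave −0.06 and replicates 4 to 6 gave 0.05. Slc6a8 also varied little within the groups, by 9.96% of the mean with vehicle and 5.42% with CPF, where counting reads alone would give about 3.15%.

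Gamt (ENSMUSG00000020150, chromosome 10: 80258151–80261012, minus strand) ran from 93.7 over 110 to 124 with vehicle and from 96.0 over 118 to 129 with CPF. Of the CPF libraries, 5 lay above the vehicle mean, as did 4 vehicle libraries, and CPF replicates 3 and 6 lay above every vehicle library. For Gamt the log2 fold change was 0.12 (SE 0.0998, limma adjusted p = 0.802), or 0.938- to 1.26-fold in the 95% interval, and the exact permutation p was 0.162. The spread of 10.9% and 10.2% of the mean was near the 9.36% that counting would give, as Gamt had only 73 to 156 reads in a library. Within replicates 1 to 3 and 4 to 6 the log2 fold change was 0.13 and 0.11.

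Ckb (ENSMUSG00000001270, chromosome 12: 111669361–111672338, minus strand), the creatine kinase tied to the creatine cycle of mouse brown fat, had the largest log2 fold change of the 6 and the largest error. Its vehicle libraries ran from 20.5 over 37.1 to 49.5 normalized counts and its CPF libraries from 18.8 over 51.8 to 66.9. CPF replicates 3, 4 and 6 lay above every vehicle library, CPF replicate 1 lay below every one, and the other 2 lay within the vehicle range. A log2 fold change of 0.40 (SE 0.28) had a limma adjusted p of 0.770 and an exact permutation p of 0.156. The 95% interval was wide, at 0.869- to 2.01-fold. Ckb rested on 16 to 76 reads in a library. Its spread was 31.3% of the mean with vehicle and 35.6% with CPF, against about 15.1% from counting alone. Of its 50-base stretches, 9.98% also occur in transcripts of other genes, above all Gm12892.

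The value of Ckb depended on CPF replicate 1. Without that library the log2 fold change was 0.65 and the exact p 0.0238 (limma adjusted p = 0.139), and without vehicle replicate 2 it was 0.26. Without both, CPF libraries averaged 54.5 ± 10.4 and vehicle libraries 38.4 ± 9.36 (mean ± SD, n = 5 each). That difference was 0.51 on the log2 scale (SE 0.18, limma adjusted p = 0.192, exact permutation p = 0.0556). Ckb was higher with CPF in each of 24 alternative fits, and 0 of them brought it past the threshold. The fits share libraries and are not independent, and some, such as those with a replicate term, cannot move the estimate. Within replicates 1 to 3 the log2 fold change was 0.60 (SE 0.44) and within replicates 4 to 6 it was 0.21 (SE 0.18).

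Alpl (ENSMUSG00000028766, chromosome 4: 137741733–137796384, minus strand) ran from 99.7 over 135 to 187 normalized counts with vehicle and from 100 over 127 to 149 with CPF. All CPF libraries lay within the vehicle range. For Alpl the log2 fold change was −0.14 (SE 0.14, limma adjusted p = 0.824, exact permutation p = 0.338), with a 95% interval of 0.737- to 1.11-fold. Without the 2 libraries that stood apart it was 0.01 (SE 0.12). Vehicle replicate 2, with the highest Alpl, also had the highest Runx2, the transcription factor of osteoblasts, at 284 against 153 to 210 in the 10 other libraries. Its sum of preadipocyte and fibroblast markers, mostly Col1a1, Col3a1 and Pdgfra, was also the highest, at 75875 against 36783 to 47360 in those 10. The other libraries did not all follow this. CPF replicate 1 had the next highest sum, 49651, with Runx2 at 196, but an Alpl of 100. Vehicle replicate 5 had the next highest Alpl, 166, with Runx2 at 184. Whether Runx2 or the summed markers take part in the Alpl values was not tested. In bulk RNA, fewer cells of a type and less RNA per cell cannot be told apart. Phospho1, a phosphatase with a role close to that of TNAP in mineralizing tissue, stood at 90.7 ± 20.5 with vehicle and 95.3 ± 23.9 with CPF, a value that is uncertain because 89.6% of its exonic bases overlap Zfp652 on the same strand.

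Of the calcium pumps, Atp2a2 (ENSMUSG00000029467, chromosome 5: 122453513–122502225, minus strand) was the most evenly expressed gene of the set. It ran from 2826 over 2888 to 3482 normalized counts with vehicle and from 2745 over 3030 to 3166 with CPF. Vehicle replicate 2 was the highest library, and CPF replicate 2 alone lay outside the vehicle range, below it. Its log2 fold change was 0.01 (SE 0.062, limma adjusted p = 0.987, exact permutation p = 0.929), with a 95% interval of 0.918- to 1.10-fold. Gene counts do not separate the isoforms SERCA2a and SERCA2b, which come from the same gene. Taken alone, replicates 1 to 3 gave −0.06 and replicates 4 to 6 gave 0.07.

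Atp2b1 (ENSMUSG00000019943, chromosome 10: 98914406–99026143, plus strand), which exports calcium from the cell, had the smallest p of the 6. Its vehicle libraries ran from 931 over 1040 to 1633 normalized counts and its CPF libraries from 831 over 905 to 1076. Each of the 6 CPF libraries fell short of the vehicle mean, but so did 4 vehicle libraries, and CPF replicates 2, 3, 4 and 6 were lower than any vehicle library. Its log2 fold change was −0.26 (SE 0.12), with a 95% interval of 0.702- to 0.992-fold, an unadjusted p of 0.0417 and an adjusted p of 0.677 by limma. That unadjusted p ranked 826th among the 13531 genes. By the exact permutation test p was 0.0541.

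The size of the Atp2b1 difference depended on vehicle replicate 2. Without it the log2 fold change was −0.15 (exact permutation p = 0.106, limma adjusted p = 0.953). Without that library and CPF replicate 1, CPF libraries stood at 891 ± 60.5 and vehicle libraries at 1019 ± 84.0 (mean ± SD, n = 5 each), or −0.19 on the log2 scale (SE 0.063, limma adjusted p = 0.159, exact permutation p = 0.0317). Replicates 1 to 3 alone gave −0.32 (SE 0.22), and replicates 4 to 6 alone gave −0.20 (SE 0.061, limma adjusted p = 0.165). Its sign was negative in each of the 25 alternative fits, and 0 of them gave an adjusted p under 0.05. These fits reuse the same libraries and are not independent. A change of filter or an added replicate term cannot move the estimate, so the tally of signs is a description only.

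**Figure D3:**
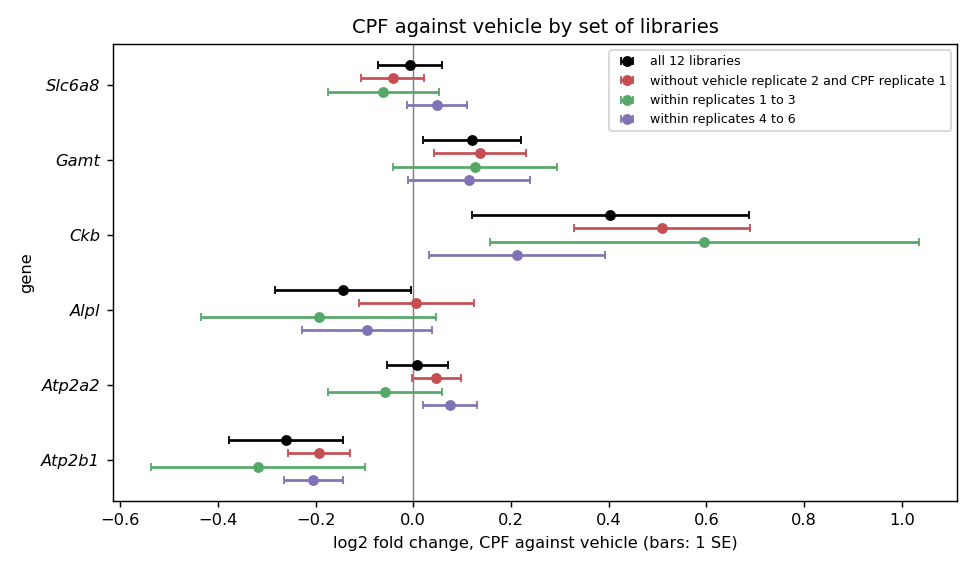
Log2 fold change of CPF against vehicle for each of 6 genes (points, with bars of 1 SE) in all 12 libraries, without vehicle replicate 2 and CPF replicate 1, and within 2 sets of replicate numbers. Atp2b1 lies left of 0 in all 4 fits, from −0.32 to −0.19, and Ckb and Gamt lie right of it in all 4, while Slc6a8, Alpl and Atp2a2 cross 0.

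The 2 libraries that stood apart, 1 in each group, shared a pattern in 3 of these genes. In both groups the library that stood apart held the lowest Ckb, the lowest Gamt and the highest Atp2b1 of its group. Ckb was 20.5 in vehicle replicate 2 and 18.8 in CPF replicate 1, against 25.6 to 66.9 in the other 10 libraries. Atp2b1 was 1633 and 1076, against 831 to 1134. Gamt was 93.7 and 96.0, against 93.9 to 129, with the 93.9 in vehicle replicate 5. For Gamt and Atp2b1, CPF replicate 1 thus lay within the range of the other 10 libraries. For Alpl the 2 libraries went opposite ways, at 187 and 100. The sum of the brown fat markers was 62678 and 41287 in these libraries, against 53303 to 72404 in the other 10. Fabp4, Cidea and Adipoq were its largest parts, with vehicle means of 29337, 8047 and 7452, against 2850 for Ucp1. The sum therefore follows those genes more than Ucp1. The sum of preadipocyte and fibroblast markers was 75875 and 49651, above the highest of the others, 47360. Most of that sum is Col1a1, Col3a1 and Pdgfra, and not every marker followed it. Dlk1 was lowest of the 12 libraries in vehicle replicate 2, at 316, where the highest library held 1105. Whether cell state has a part in these values was not tested.

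**Figure D4:**
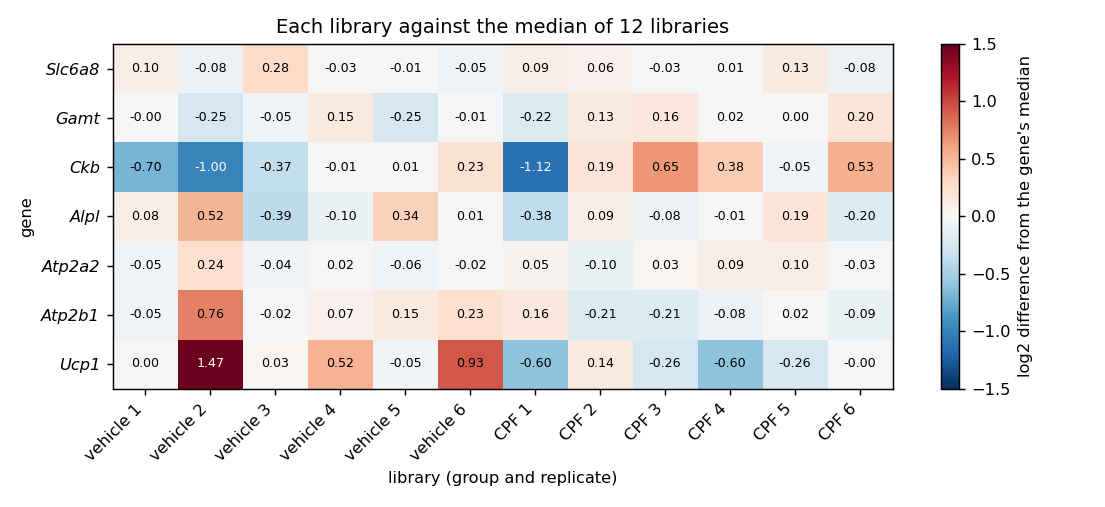
Log2 difference of each library from the gene's median over 12 libraries, for 6 genes and Ucp1 (rows) in vehicle and CPF replicates (columns), in blue where lower and red where higher. Ckb is lowest in vehicle replicate 2 and CPF replicate 1, at −1.003 and −1.125, and Ucp1 and Atp2b1 are highest in vehicle replicate 2, at 1.47 and 0.76.

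Ucp1, the proton channel of the other route of heat production, differed by −0.75 on the log2 scale (SE 0.25). By limma its unadjusted p was 0.0120 and its adjusted p 0.611. Without the 2 libraries that stood apart Ucp1 differed by −0.48 (limma adjusted p = 0.369). Its value in vehicle replicate 2 was the highest of the 12 libraries, as was that of Atp2b1, Alpl and Atp2a2, and it was 5204 normalized counts there against 1821 to 3580 in the other vehicle libraries.

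The genes whose levels followed a member most closely over the 12 libraries were picked from all tested genes as the 2 with the highest Pearson correlation of log2 levels. The correlation describes likeness over libraries that differ in depth and treatment and include the 2 that stood apart, with no test. For Ckb these were Rasl12 (r = 0.97, or 0.95 over the 10 libraries without those that stood apart) and Psma1 (0.94 and 0.85). For Atp2b1 they were Sc5d (0.98 and 0.92), an enzyme of cholesterol synthesis, and Adamts2 (0.98 and 0.94), which trims procollagen. For Alpl they were Nsl1 (0.96 and 0.95) and Mindy1 (0.92 and 0.91), for Slc6a8 Map3k10 (0.96 and 0.96) and Fam193a (0.93 and 0.94), and for Gamt Nol4l (0.93 and 0.89) and Fxyd1 (0.92 and 0.86). Atp2a2, which varied least, had no gene as close: Slc43a2 reached 0.86 (0.70 over 10) and Fam160a1 0.85 (0.75 over 10). Ranked anew over the 10 libraries, only Map3k10 was still 1st for its member. Psma1 ranked 20th for Ckb, Fxyd1 23rd for Gamt, and Fam160a1 and Slc43a2 110th and 216th for Atp2a2.

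The lists around the cycles are given as a description, since 0 of 13531 genes were called in the same fit and no list could stand out by its calls. Of 9 tested genes that handle adenine nucleotides at the mitochondrion or act beside TNAP, 0 passed, and the median log2 fold change was 0.06. Slc25a5 and Slc25a4, the carriers that swap ADP for ATP across the inner membrane, stood at 5084 ± 465 and 4977 ± 330 normalized counts with vehicle and at 5225 ± 1081 and 5428 ± 638 with CPF. Of the 50-base stretches of Slc25a5, 33.8% occur in transcripts of other genes. The muscle creatine kinase Ckm and the creatine carrier Slc16a12 were not analysed here.

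The list drawn up for the supply of methyl groups, glycine and arginine for creatine had 0 calls among 16 tested genes. Of these, 8 had a positive and 8 a negative log2 fold change, with a median of 0.02. Whether Ahcyl1 and Ahcyl2, which are counted with the list, serve this supply was not tested. Ahcyl2 stood at 1806 ± 191 with vehicle and 2049 ± 182 with CPF (log2 fold change 0.18, SE 0.077, unadjusted p = 0.0297, adjusted p = 0.654 by limma). The most abundant per kb were Oat, Ahcyl1 and Shmt2, with log2 fold changes of 0.05 each. Shmt2 is the mitochondrial enzyme that makes glycine from serine, and Oat handles ornithine.

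Calcium handling genes are given by membrane. Of 11 tested ER pumps, chaperones and regulators 0 passed (median 0.01), with the calcium-binding chaperone Calr at 9519 ± 721 with vehicle and 9226 ± 453 with CPF, Hspa5 at 9451 ± 2025 and 9417 ± 1498, and Canx at 3800 ± 170 and 3771 ± 217. Atp2a3 stood at 1085 ± 78.7 and 963 ± 130, a log2 fold change of −0.18 (SE 0.085, unadjusted p = 0.0490 and adjusted p = 0.681 by limma), and −0.15 without the 2 libraries that stood apart. The muscle pump Atp2a1, the SERCA inhibitors Sln and Pln and the ryanodine receptors Ryr1, Ryr2 and Ryr3 were not analysed here. With vehicle and CPF, the IP3 receptor Itpr1 stood at 1804 ± 88.0 and 1844 ± 272, Itpr2 at 2281 ± 165 and 2471 ± 536, and Itpr3 at 351 ± 57.3 and 351 ± 35.1. Without the ryanodine receptors, the release list as tested rests on these, calmodulins, Camk2 genes, Fkbp1a, Jph1 and Asph. Of its 13 tested genes 0 passed (median 0.02), and Calm2, a calmodulin gene, stood at 2445 ± 198 and 2717 ± 112 (0.16, SE 0.061, unadjusted p = 0.0221, adjusted p = 0.633 by limma), or 0.10 without the 2 libraries. Calm3 stood at 1229 ± 86.2 and 1175 ± 81.6, and Fkbp1a, which binds calcium release channels, at 1379 ± 93.0 and 1368 ± 85.2.

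Of 13 tested genes of calcium entry and export 0 passed, 5 with a positive and 8 with a negative log2 fold change (median −0.03). Bsg, a partner protein of membrane transporters and the most abundant gene of these lists per kb, stood at 43777 ± 4410 with vehicle and 48813 ± 4960 with CPF (log2 fold change 0.16, SE 0.089, limma adjusted p = 0.710), Nptn, its relative, at 1602 ± 85.1 and 1602 ± 48.7, and Orai3, a channel of store-operated entry, at 163 ± 9.33 and 170 ± 19.4. Of 12 genes of mitochondrial calcium 0 passed (median 0.03). Ghitm stood at 9660 ± 534 and 10093 ± 580, Smdt1, the EMRE subunit of the uniporter, at 484 ± 30.0 and 499 ± 70.8, and Afg3l2, a protease of the inner membrane, at 2835 ± 210 and 3074 ± 71.3. Of the exonic bases of Smdt1, 16.6% overlap Pheta2 on the same strand. In all, 5 of the 74 genes tested in the 6 lists around the cycles had an unadjusted p under 0.05, or 6.76%, against 7.32% of all genes tested. The 2 shares are close.

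**Figure D5:**
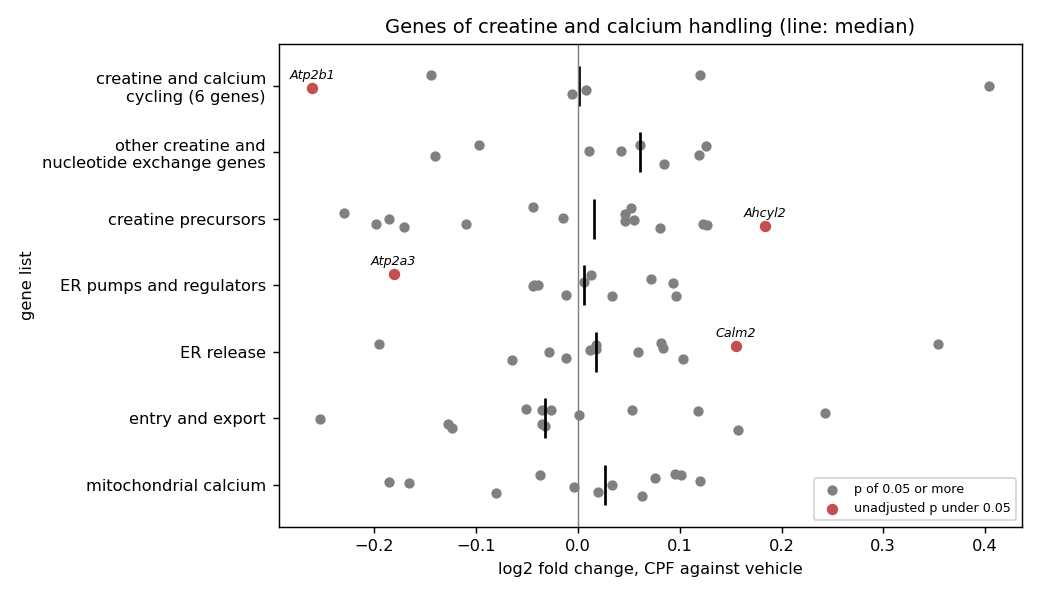
Log2 fold change of CPF against vehicle for tested genes of 7 lists (points, jittered in height), with the median of each list as a line and genes with an unadjusted p under 0.05 in red and named. The medians lie between −0.03 and 0.06, and 4 genes are named, Atp2b1 among them. The medians include 2 genes that are not drawn.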

How the data were processed

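Strand-specific RNA libraries were sequenced, 6 per group. The authors used Trimmomatic for trimming, HISAT2 for alignment to GRCm38, htseq-count for reverse-stranded exon counting and DESeq2 for normalization. Tool versions: not given in the sources used here. The deposited signal is a normalized count for each of 14775 genes. Dividing by the value of 1 read gave whole numbers throughout (tolerance 0.01), and the recovered reads set the depth, 7875502 to 14166615 per library. Columns of the authors' own averages, fold changes and p-values, 12 columns of a ratio per library, and 2 sheets of gene lists were not used.

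Genes with a mean of at least 10 entered a linear model (limma 3.58.1, R 4.3.3; trend and robust, log2 of the value plus 1, two-sided, no covariate, Benjamini-Hochberg adjustment over 13531 genes). Exact permutation tests, two-sided and unadjusted, used all arrangements of the libraries kept. These were 924 with all 12 libraries and fewer where libraries were left out. As alternatives, the recovered reads were tested with edgeR 4.0.16 and with DESeq2 1.42.0, and limma was run with TMM scaling, without the filter or with a minimum of 50, with 0.1 or 10 as pseudocount, with library weights, with terms for the replicate number or for replicates 1 to 3 against 4 to 6, within these sets, and with libraries left out. Limma, edgeR and DESeq2 were tested on simulated data. Coordinates, exon lengths and overlaps are from GENCODE M21 (GRCm38, not the release the authors used). Counting error is one part of the spread of low genes such as Ckb.

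The genes named were the 6 members, the 3 most abundant per kb of each list, any gene of a list with an unadjusted p under 0.05, fixed genes of the cycles and Ucp1, and the 2 nearest genes of each member. Of the listed genes, 2 are counted with their lists but not otherwise reported here. Cidea, Camk2a, Itpr1, Itpr2, Itpr3, Jph1, Asph and the markers discussed are additions. The members and lists were chosen with earlier results of these data known.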

Additional observations from a re-analysis of the deposited data

Results flagged for a closer look

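Among 27 of the genes named above (54 groups of 6 libraries), 8 values lay far from the rest of their group. Chance gives about 5% for a single group, but the 54 groups share the same 12 libraries and are not independent. Of the 8 values, 4 were CPF replicate 1 and 3 vehicle replicate 2. Vehicle replicate 2 was high for Atp2b1, at 1633 normalized counts with the next at 1134, for Atp2a2, at 3482 with the next at 2985, and for Nptn, at 1765 with the next at 1615. CPF replicate 1 was low for Slc25a5 (3070, next 5328), Slc25a4 (4201, next 5442) and Ghitm (8995, next 9999), and high for Bsg (58528, next 48669). Vehicle replicate 1 was high for Smdt1 (541, next 488).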

How the results depend on the processing

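No setting brought any of the 6 genes past the threshold. The count of genes called over the table, 0 in the fit reported, was 4 by DESeq2, 22 within replicates 4 to 6, 22 with library weights, 54 without both vehicle replicate 2 and CPF replicate 1, and 0 to 11 with each library left out in turn (11 without CPF replicate 1), and the cause was not tested. The list of ER calcium release had 1 call within replicates 4 to 6 (Camk2a). Directions turned only near 0. For Slc6a8 the log2 fold change was 0.049 within replicates 4 to 6, 0.0025 with library weights and −0.030 to 0.044 with each library left out. For Atp2a2 it was −0.058 within replicates 1 to 3 and −0.0079 to 0.053 with each library left out. For Alpl it was 0.0065 without both libraries. The exact p with each library left out ran from 0.348 to 0.974 for Slc6a8, 0.175 to 0.996 for Atp2a2, 0.0281 to 0.132 for Atp2b1, 0.0238 to 0.288 for Ckb and 0.0433 to 0.323 for Gamt. Ckb could not be fitted at a minimum mean of 50. Whether libraries with the same replicate number pair was not settled: their deviations correlated above 0.1 in 4 of 6 pairs, from −0.21 to 0.26. Only replicate 6 correlated more with its own number (0.16) than with any other (at most 0.06). A replicate block cannot change the log2 fold change in this balanced design, only its error and p. With the block Atp2b1, at −0.26, had a limma adjusted p of 0.666, and 0 genes were called. For Ckb the block gave an SE of 0.21 against 0.28 without it (limma adjusted p = 0.681 with the block). Depth limits Ckb most, at 16 to 76 reads.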
